A study of Homo sapiens with 6 samples.

Results

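The DNA methylation writers and erasers examined here were the 9 genes DNMT1, DNMT3A, DNMT3B, UHRF1, UHRF2, TET1, TET2, TET3 and TDG, of the 62754 genes in the counts table. They were listed by name, with no threshold on a measured value, and all 9 were matched to an Ensembl identifier and passed the filter on low counts. RNA-seq libraries came from control HEK293 cells (3 libraries) and from HEK293 cells in which FAM60A had been knocked out (3 libraries). HEK293 is a human embryonic kidney line, and the labels also name its derivative HEK293T, which carries the SV40 large T antigen. The knockout was not a single clone but a pool, selected with puromycin after transfection of Cas9 and guide RNAs against 3 regions of FAM60A, and both groups were grown in DMEM with serum and no further treatment. What the control cells had received was not given in the sources used here, and nothing says that the 3 libraries of a group came from separate cultures, so p-values measure only the spread between these libraries.

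DNA methylation in mammals is laid down on the cytosine of CpG dinucleotides. DNMT3A and DNMT3B place it on unmethylated DNA, while DNMT1 copies it onto the new strand after replication, guided by UHRF1, a ubiquitin ligase that recognizes hemimethylated CpG. UHRF2 has the same domains as UHRF1 but does not replace it in maintaining methylation. The TET dioxygenases oxidize 5-methylcytosine step by step, and the glycosylase TDG excises the most oxidized forms, after which base excision repair restores an unmodified cytosine. TET1 is a known partner of the SIN3A corepressor, the complex that FAM60A belongs to. DNA methylation itself was not measured in these libraries.

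Windows before transcript starts of UHRF1, UHRF2 and DNMT1 are shown. UHRF2 and DNMT1 were the members called in the comparison below, and UHRF1 is the partner of DNMT1 and the paralog of UHRF2. Each run is the 250 bases before a RefSeq transcript start on GRCh38.p14, on the gene's own strand, from chr19:4909251-4909500 for UHRF1 (forward strand), chr9:6412949-6413198 for UHRF2 (forward) and chr19:10194954-10195203 for DNMT1 (reverse). Capitals mark letters of the E2F type, that is TTTCCCGC, TTTCGCGC, TTTGCCGC or TTTGGCGC on either strand.
UHRF1: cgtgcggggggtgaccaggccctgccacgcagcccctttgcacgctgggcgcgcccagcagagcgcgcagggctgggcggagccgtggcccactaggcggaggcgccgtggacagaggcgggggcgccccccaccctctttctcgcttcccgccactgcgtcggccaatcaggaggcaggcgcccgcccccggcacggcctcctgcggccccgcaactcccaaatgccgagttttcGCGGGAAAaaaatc
UHRF2: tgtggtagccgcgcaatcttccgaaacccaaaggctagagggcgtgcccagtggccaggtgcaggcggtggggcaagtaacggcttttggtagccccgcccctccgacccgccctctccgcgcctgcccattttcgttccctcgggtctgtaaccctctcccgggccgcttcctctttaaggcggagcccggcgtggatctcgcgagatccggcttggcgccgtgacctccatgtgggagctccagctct
DNMT1: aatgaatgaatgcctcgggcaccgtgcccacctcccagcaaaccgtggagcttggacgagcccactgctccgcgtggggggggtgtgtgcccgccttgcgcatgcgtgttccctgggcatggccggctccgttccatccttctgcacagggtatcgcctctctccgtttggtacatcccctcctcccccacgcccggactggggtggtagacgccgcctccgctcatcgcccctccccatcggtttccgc

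There were 20 such windows for the 9 genes, some of which overlap. The only DNMT3B window, chr20:32779602-32779851 with 3 CpG, lies inside the gene, which starts at 32762385. The start of DNMT3B was therefore not covered. Nor were those of UHRF1, which starts at 4903080, and TET3, which starts at 73983631. All windows of UHRF1 and TET3 lie inside these genes. The 20 windows had a median of 22 CpG dinucleotides, against 11 over all 35114 windows. The E2F-type letters were found in 2 of the 20 windows, or 10%, both of them UHRF1 windows, against 2.79% of all windows. In the UHRF1 window shown, which had 28 CpG, the match begins 14 bases before that transcript start. The UHRF2 and DNMT1 windows had 23 and 21 CpG and no match, which says only that these letters are not in the windows.

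Total counts lay between 88361827 and 93346824 per library. FAM60A RNA, the targeted transcript, was 117 ± 13.7 TMM-scaled CPM in the controls (SD, n = 3) and 65.1 ± 3.01 in the knockout (SD, n = 3), without overlap (two-sided exact permutation test p = 0.1, the smallest value for 3 against 3). Its log2 fold change was -0.85 (edgeR adjusted p = 0.00863, and 0.0571 to 0.0736 without any one knockout library). Control replicate 3 stood apart from the other controls: it differed at least 4-fold from control replicates 1 and 2 in 1140 and 1114 genes and from the knockout libraries in 395 to 460, while no gene differed as much within the other replicate pairs. It is therefore described separately for each of the 9 genes. For many genes named from the lists its value is not given, and their fold changes include it unless stated. All 8 neuronal and renal genes known from HEK293 cells passed the filter (NEFL had 7062 to 13798 counts), and 4 of them fell, against 8.67% of all genes called lower. INA was among them, with a log2 fold change of -1.88 (edgeR adjusted p = 0.0026). Among markers of other cell types, 6 of the 11 matched stayed under 20 counts in every library, among them ALB and PTPRC. Summed, the 11 markers reached 13357 and 13234 counts in control replicates 1 and 2, 32787 in control replicate 3 and 40636 to 42342 in the knockout. The epithelial gene EPCAM made up most of each sum, with 10669, 10521 and 29052 counts in the controls and 37289 to 38691 after knockout, but was not called (edgeR adjusted p = 0.0733). CDH1, also epithelial, had 198, 147 and 1792 counts against 2164 to 2474 and was not called either (edgeR adjusted p = 0.218). COL1A1, a fibroblast collagen, was the one marker of this list called, and fell, with 2446, 2526 and 1854 counts against 1145 to 1401 (log2 fold change -0.66, edgeR adjusted p = 0.0361). The part of these differences in the results below was not tested.

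Per kilobase of annotated exon, UHRF1 had the highest value of the 9 genes in control cells, at 26.7 ± 5.68 CPM per kb. TDG (21.9 ± 3.97) and DNMT1 (19.4 ± 1.36) came next. UHRF2 (5.64 ± 0.577), DNMT3B (4.99 ± 1.19), TET3 (3.44 ± 0.638), DNMT3A (2.05 ± 0.235), TET1 (1.57 ± 0.154) and TET2 (0.802 ± 0.2 CPM per kb, all SD, n = 3) followed in this order. The control ranges of UHRF1 and TDG, of TDG and DNMT1, and of UHRF2 and DNMT3B overlapped, so these neighbours were not set apart. In knockout cells TDG came first at 26.0 ± 1.46 CPM per kb, ahead of UHRF1 (18.8 ± 0.194) and DNMT1 (15 ± 0.626), and no ranges of these 3 genes overlapped. TET1 (2.13 ± 0.112) and DNMT3A (2.12 ± 0.165), which overlapped each other, were the only neighbours not set apart in the knockout. Exon lengths were the union of all exons of a gene in GENCODE 44, which may not be the annotation of the counts. A union is not the length of a single transcript, and it was 15379 bases for DNMT1 against 5144 for UHRF1. In CPM without lengths DNMT1 came first, at 298 in the controls against 137 for UHRF1 and 107 for TDG. After knockout these levels were 231, 96.5 and 127 CPM. Exon lengths affect the order per kilobase and the sums and shares per kilobase given below, but no fold change of a single gene.

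Of the 9 genes, 2 passed an adjusted p of 0.05 in the comparison of knockout with control (edgeR's quasi-likelihood test, Benjamini-Hochberg adjustment over 20992 genes). UHRF2 rose and DNMT1 fell. The test called 16.6% of all genes, 7.96% higher and 8.67% lower, so 1 of 9 members in each direction is close to this background. With library size in place of TMM the split over all genes was 1235 higher and 2668 lower, from 1671 and 1820. No member reached an absolute log2 fold change of 1, whereas 7.06% of all genes were called past it. Without overlap between groups, 3 members (UHRF2, TET1 and TDG) were higher and 2 (DNMT1 and UHRF1) lower in the knockout, against 21.5% and 20.1% of all genes. Without control replicate 3, 5 members were called, TET1 and UHRF2 higher and DNMT1, UHRF1 and TET3 lower. In that fit 65.6% of all genes were called, 32.4% higher and 33.2% lower. Without any other single library no member was called by edgeR, although 3 had an unadjusted p under 0.05 in each of these 5 fits. Of the 21462 to 21873 genes tested in these fits, 167 to 1049 were called and 4954 to 5794 had an unadjusted p under 0.05. DESeq2 on all libraries called 4 members and 5581 of all genes.

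**Figure D1:**
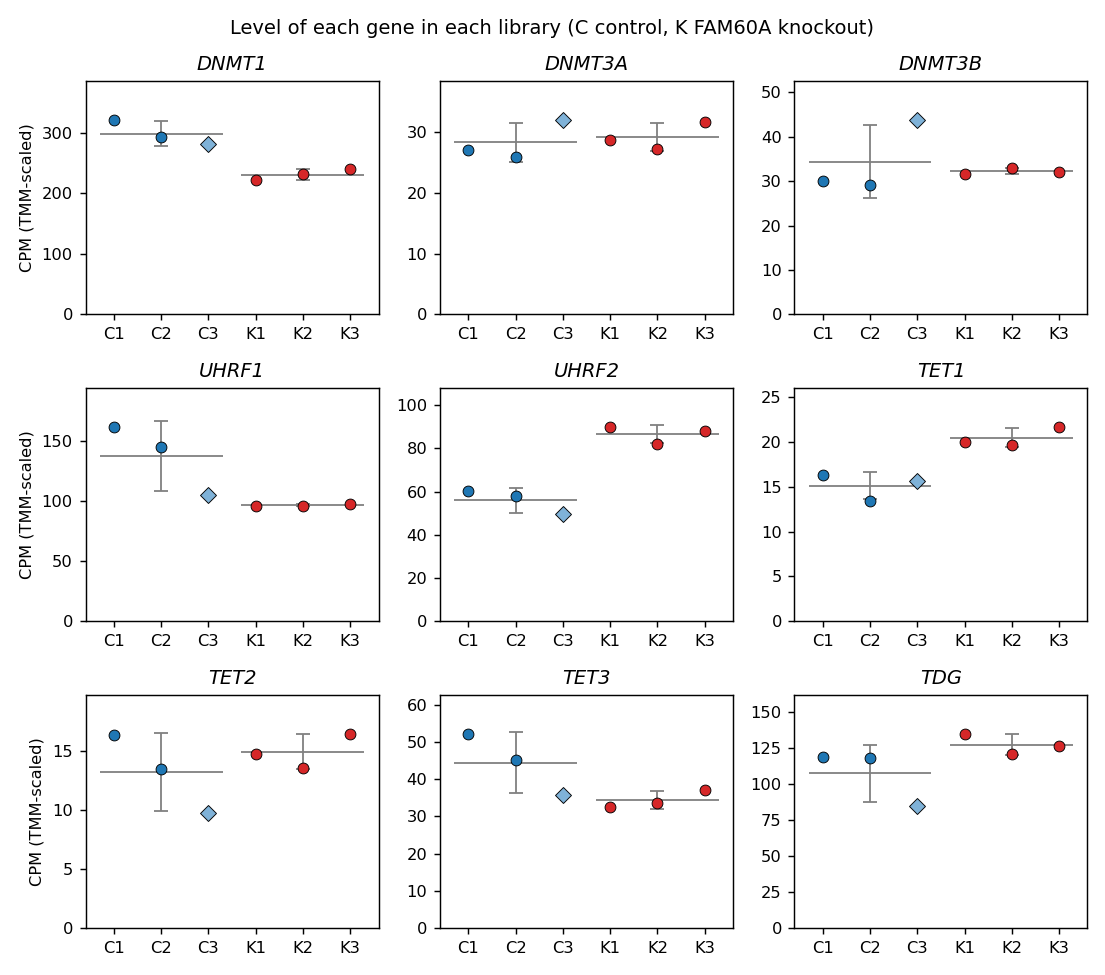
Level of each of the 9 genes (y axis, TMM-scaled CPM, from 0) in control replicates C1 to C3 and FAM60A-knockout replicates K1 to K3. Grey lines and bars give the mean and SD of each group, and the diamond is control replicate 3. UHRF2, TET1 and TDG lie above every control in the knockout, DNMT1 and UHRF1 below. Control replicate 3 is the highest library for DNMT3A and DNMT3B and the lowest for UHRF2, TET2 and TDG.

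UHRF2 (ENSG00000147854, chromosome 9 of GRCh38.p14 from 6413199 to 6507054) gave 5865, 5572 and 4779 counts in control replicates 1 to 3, against 7580, 7195 and 7791 in knockout replicates 1 to 3. All knockout libraries lay above all controls, and control replicate 3 was the library farthest from the knockout. Expression rose from 55.9 ± 5.72 to 86.7 ± 4.2 CPM (SD, n = 3), or 1.55-fold. On the log2 scale this was 0.63 (standard error, SE, 0.11, edgeR adjusted p = 0.0154). It was 0.52 without control replicate 3 (edgeR adjusted p = 4.24e-06). Without any one of the other 5 libraries the log2 fold change stayed between 0.61 and 0.68, but the edgeR adjusted p was 0.0513 (without control replicate 1), 0.0603 (control 2), 0.0935 (knockout 1), 0.0626 (knockout 2) and 0.0884 (knockout 3). Over all 12 alternatives it ranged from 4.24e-06 to 0.0935.

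UHRF1 (ENSG00000276043, chromosome 19 from 4903080 to 4962154) went the other way in its values. The controls gave 15721, 13962 and 10140 counts, the knockout libraries 8056, 8436 and 8617. The groups did not overlap, but control replicate 3 lay next to the knockout, 0.12 above its mean on the log2 CPM scale and 0.55 below the mean of the other controls. The mean level was 137 ± 29.2 CPM in the controls and 96.5 ± 0.997 CPM after knockout (SD, n = 3). The log2 fold change of -0.51 (standard error 0.16) did not pass the threshold (edgeR adjusted p = 0.0805). UHRF1 passed at -0.70 without control replicate 3 (edgeR adjusted p = 5.1e-08), at -0.53 with DESeq2 (adjusted p = 0.0366) and at -0.62 with library size in place of TMM (edgeR adjusted p = 0.0483). Its adjusted p lay between 5.1e-08 and 0.236 among the 12 alternatives.

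The balance of both UHRF transcripts differed between the groups without overlap. Per kilobase of exon, the ratio of UHRF1 to UHRF2 was 5.17, 4.83 and 4.09 in the controls, against 2.05, 2.26 and 2.13 after knockout. The means were 4.7 ± 0.551 and 2.15 ± 0.107 (SD, n = 3). In this ratio, unlike in UHRF1 alone, control replicate 3 was nearer to the other controls than to the knockout. The ratio was chosen after the values had been seen and was not tested.

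DNMT1 (ENSG00000130816, chromosome 19 from 10133346 to 10194953), the maintenance methyltransferase, had 31213, 28036 and 27117 counts in the controls, against 18579, 20295 and 21179 after knockout. The groups did not overlap, and control replicate 3 lay between the other controls and the knockout, nearer to the controls. Expression fell from 298 ± 20.9 to 231 ± 9.63 CPM (SD, n = 3). The log2 fold change was -0.37 (SE 0.09, edgeR adjusted p = 0.0439). Without control replicate 3 it was -0.44 (edgeR adjusted p = 5.59e-05). Leaving out any other single library ended the call, at an edgeR adjusted p of 0.119 (without control replicate 1), 0.121 (control 2), 0.193 (knockout 1), 0.148 (knockout 2) and 0.15 (knockout 3), and without the filter on low counts (0.103).

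S-phase genes, listed because DNMT1 and UHRF1 are transcribed most in cells that replicate DNA, gave no single direction. Of 20 measured, 4 rose, 3 fell and 13 did not pass (median log2 fold change -0.04, against -0.01 over all genes tested). Of all genes, 7.96% were called higher and 8.67% lower. GINS2, a subunit of the replicative helicase, fell with a log2 fold change of -0.82 (edgeR adjusted p = 0.00987). POLA1 (0.52, edgeR adjusted p = 0.0159), the catalytic subunit of DNA polymerase alpha, and RRM1 (0.49, edgeR adjusted p = 0.0287), the large subunit of ribonucleotide reductase, were among those that rose. The number called was 13 without control replicate 3, where 65.6% of all genes were called. It was 1 without control replicate 1 or 2, and 0 without any one knockout library (8 or 9 at an unadjusted p under 0.05 in edgeR). Over all genes, these fits without another library called 167 to 1049, and 4954 to 5794 had an unadjusted p under 0.05. With library size in place of TMM, 1 rose and 5 fell. The part of replication in the DNMT1 and UHRF1 values was not tested.

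**Figure D2:**
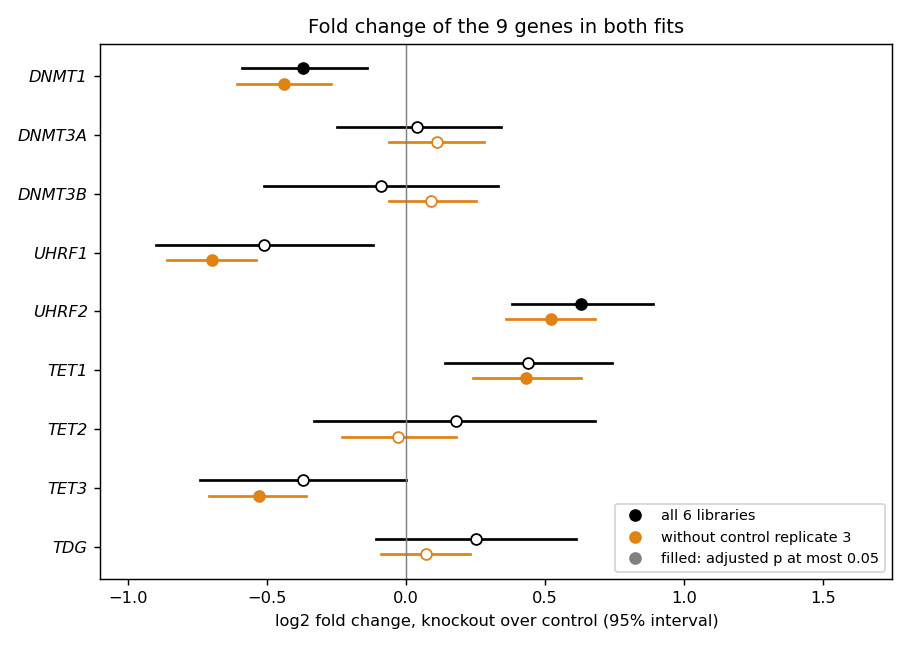
Log2 fold change of knockout over control for the 9 genes (x axis, with 95% intervals from the edgeR fit), for all 6 libraries (black) and without control replicate 3 (orange). Filled points passed an adjusted p of 0.05: UHRF2 and DNMT1 with all libraries, and UHRF1, TET1 and TET3 in addition without control replicate 3.

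The de novo methyltransferases were not called in any of the 12 alternatives. DNMT3A (ENSG00000119772, chromosome 2 from 25227874 to 25342590) had 2632, 2485 and 3090 counts in the controls, against 2413, 2390 and 2798 after knockout. Control replicate 3 was the highest library and the groups overlapped. Levels were 28.3 ± 3.24 and 29.2 ± 2.27 CPM (SD, n = 3), and the 95% interval of the log2 fold change of 0.04 ran from -0.25 to 0.34 (edgeR adjusted p = 0.827). DNMT3B (ENSG00000088305, chromosome 20 from 32762385 to 32809356), the form known for its high level in embryonic cells, had 2916, 2806 and 4232 counts against 2672, 2898 and 2830. Here again control replicate 3 was the highest library, 0.57 above the other controls and 0.44 above the knockout mean on the log2 CPM scale. Levels were 34.3 ± 8.21 and 32.3 ± 0.68 CPM (SD, n = 3), and the interval of the log2 fold change of -0.09 ran from -0.51 to 0.33 (edgeR adjusted p = 0.748). Without control replicate 3 the sign turned, at 0.09 with an interval from -0.06 to 0.25.

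The summed level of DNMT1, DNMT3A and DNMT3B was 27.2, 25.1 and 26.9 CPM per kb in the controls, against 21, 21.8 and 22.6 after knockout. The groups did not overlap. DNMT1 made up 76.7% and 75.6% of this sum in control replicates 1 and 2, 67.7% in control replicate 3 and 68.2 to 69.1% in the knockout. Control replicate 3 was near the knockout libraries in this share and among the controls in the sum. Computed from CPM without exon lengths, a comparison added after the data had been seen, its share of 78.7% lay inside the knockout range of 78.5 to 79.3%, and the other controls had 84.9% and 84.1%.

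Among the TET genes, TET1 and TET3 had log2 fold changes of opposite sign. TET1 (ENSG00000138336, chromosome 10 from 68560337 to 68694487) had 1580, 1291 and 1509 counts in the controls, against 1688, 1730 and 1919 after knockout, and control replicate 3 lay between the other controls. Levels were 15.1 ± 1.48 and 20.5 ± 1.08 CPM (SD, n = 3), without overlap. The log2 fold change of 0.44 (standard error 0.12) just missed the threshold (edgeR adjusted p = 0.0562, between 0.000296 and 0.212 among the 12 alternatives). It was 0.43 without control replicate 3 (edgeR adjusted p = 0.000296) and 0.42 with DESeq2 (adjusted p = 0.00835), both past the threshold.

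TET3 (ENSG00000187605, chromosome 2 from 73983631 to 74135498) had 5083, 4351 and 3462 counts in the controls, against 2746, 2938 and 3285 after knockout. Control replicate 3 lay within the knockout range, so the groups overlapped. Levels were 44.5 ± 8.26 and 34.4 ± 2.44 CPM (SD, n = 3). The log2 fold change was -0.37 (SE 0.15, edgeR adjusted p = 0.147). It passed the threshold solely in the fit without control replicate 3, at -0.53 (edgeR adjusted p = 1.07e-05, between 1.07e-05 and 0.365 among the 12 alternatives). TET2 (ENSG00000168769, chromosome 4 from 105145875 to 105279803), the lowest of the 9 genes, had 1591, 1296 and 946 counts against 1244, 1194 and 1454. Control replicate 3 was the lowest library and the groups overlapped, with 13.2 ± 3.3 and 14.9 ± 1.44 CPM (SD, n = 3). The interval of the log2 fold change of 0.18 ran from -0.33 to 0.68 (edgeR adjusted p = 0.584), and without control replicate 3 the value was -0.03.

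Set side by side per kilobase of exon, the TET transcripts had overlapping sums but a different make-up. The sum was 6.72, 5.72 and 4.99 CPM per kb in the controls, against 5.5, 5.46 and 6.13 after knockout, which overlapped. TET1 made up 25.1%, 24.5% and 32.6% of it in the controls, against 37.9%, 37.5% and 36.9% after knockout. TET3 made up 60.1%, 61.2% and 55.5% against 45.8%, 47.3% and 46.9%. Neither share overlapped between groups, and control replicate 3 lay between its group and the knockout for both. TET2 made up 14.8%, 14.3% and 11.9% in the controls, against 16.3%, 15.1% and 16.3% after knockout, also without overlap. In the TET2 share control replicate 3 was the library farthest from the knockout. From CPM without exon lengths, likewise added later, the TET1 share was 18.6 to 25.5% in the controls and 28.8 to 29.7% after knockout, and the TET3 share 58.5 to 62.7% and 48.4 to 50.1%, also without overlap. These shares were not tested.

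**Figure D3:**
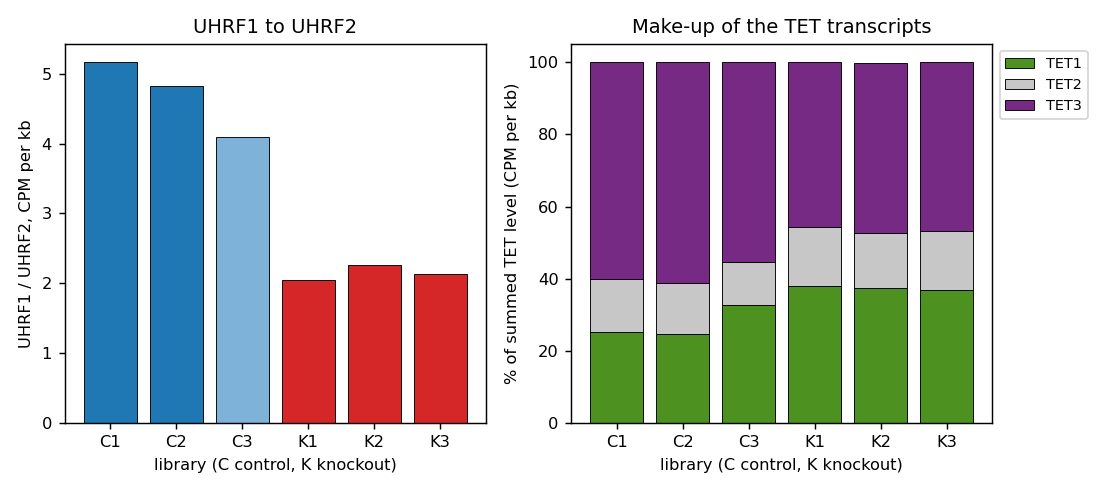
Left, ratio of UHRF1 to UHRF2 (y axis, CPM per kb over CPM per kb, from 0) in each library. Right, percent of the summed TET level that TET1, TET2 and TET3 made up in each library. The ratio lies between 4.09 and 5.17 in the controls and between 2.05 and 2.26 in the knockout, and the TET1 share is at least 36.9% in every knockout library.

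TDG (ENSG00000139372, chromosome 12 from 103965872 to 103988874) had 11523, 11335 and 8182 counts in the controls, against 11363, 10604 and 11093 after knockout. On the normalized scale the knockout libraries lay just above control replicates 1 and 2, and control replicate 3 was the lowest library, 0.48 below the other controls on the log2 CPM scale. Levels were 107 ± 19.4 and 127 ± 7.15 CPM (SD, n = 3), and the interval of the log2 fold change of 0.25 ran from -0.11 to 0.61 (edgeR adjusted p = 0.285). TDG has a processed pseudogene, TDGP1, to which its reads could be assigned. TDGP1 had 3552, 2568 and 1986 counts in the controls, against 3449, 2974 and 3175 after knockout, so the split between them is uncertain. The sum of both was 135 ± 26.3 and 164 ± 10.8 CPM (SD, n = 3), and in this sum the groups overlapped, unlike in TDG alone. The pseudogenes TET1P1, DNMT3AP1 and UHRF2P1 had at most 7 counts in any library. COX20P1, within TET1, had 408 to 859 counts and S1PR2, which overlaps DNMT1, 398 to 616, both on the strand of the member.

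UHRF2 had the widest range of the 9 genes over the 6 libraries, 0.86 on the log2 CPM scale. Among 14669 other genes that averaged at least 100 counts, the centred log2 CPM profiles nearest to it were those of SLC41A2 (Euclidean distance 0.0536), PRSS35 (0.0847) and ENSG00000232176 (0.0892), over 6 libraries. SLC41A2, a magnesium transporter gene, had 1854, 1674 and 1476 counts in the controls, against 2343, 2243 and 2403 after knockout, the same order of libraries within the controls as UHRF2.

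Of 62 tested genes that work with these enzymes, 2 rose, 8 fell and 52 did not pass. The median log2 fold change was -0.11, against -0.01 over all genes tested. The total called was close to the 16.6% of all genes, but the split was less even than over all genes, with 7.96% higher and 8.67% lower. HELLS, a chromatin remodeller needed for methylation of repeats, rose from 58.7 ± 2.79 to 91.5 ± 3.77 CPM (SD, n = 3), or 0.64 on the log2 scale (SE 0.09, edgeR adjusted p = 0.00917). Of the other 17 tested partners and cofactor suppliers of the methyltransferases, EHMT2 and MAT2A fell. EHMT2, which methylates histone H3 at lysine 9 and is known to associate with DNMT1, had a log2 fold change of -0.77 (edgeR adjusted p = 0.0286), and MAT2A, which makes the methyl donor S-adenosylmethionine, one of -0.36 (edgeR adjusted p = 0.0414). Among 14 TET partners and cofactor suppliers none rose and 2 fell, CXXC5 (-1.38, edgeR adjusted p = 0.0402), a CXXC zinc finger gene related to the DNA-binding part of TET proteins, and SIN3A (-0.57, edgeR adjusted p = 0.0185).

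Among 9 genes of the MBD family and the zinc finger proteins that bind methylated CpG, none rose and 2 fell. Over all genes, 7.96% were called higher and 8.67% lower. MBD3, MBD5 and MBD6 belong to this list by their domain, although the mammalian proteins do not selectively bind methylated CpG. One of the genes that fell was MBD3, a subunit of the NuRD complex, with 220 ± 38.6 CPM in the controls and 149 ± 12.7 CPM after knockout (SD, n = 3). Its log2 fold change was -0.56 (edgeR adjusted p = 0.0483). Of the 6 genes whose products bind unmethylated CpG none passed with edgeR, and the smallest p was that of KDM2B (0.40, edgeR adjusted p = 0.0633), which DESeq2 called at 0.38 (adjusted p = 0.0258). In edgeR 3 of the 6 had an unadjusted p under 0.05, as had 7249 of all 20992 genes tested. Without control replicate 3 all 6 were called, 4 higher and 2 lower, KDM2B at 0.49 (edgeR adjusted p = 5.77e-06), in the fit that called 65.6% of all genes. The base excision repair list also held glycosylases other than TDG and the GADD45 genes. Of its 15 genes 1 rose and 2 fell, against 7.96% and 8.67% of all genes. The genes called were the glycosylase NEIL3 (0.52, edgeR adjusted p = 0.027), the DNA strand break sensor PARP1 (-0.59, edgeR adjusted p = 0.0179) and the ligase LIG3 (-0.36, edgeR adjusted p = 0.0261).

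These calls depended on single libraries, as did those over all genes. Of the 10 genes called, all 10 were called without control replicate 3, in a total of 47 of the 62, in a fit that called 65.6% of all genes. Without control replicate 1, 2 of the 10 were called, without control replicate 2, 3, and without knockout replicate 2, 1. Over all genes these 3 fits called 1049, 796 and 503. Without knockout replicate 1 or 3 none of the 10 was called, against 167 and 189 of all genes. In these edgeR fits 14 and 15 of the 62 genes had an unadjusted p under 0.05, against 4954 of 21873 and 5000 of 21736 genes tested.

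**Figure D4:**
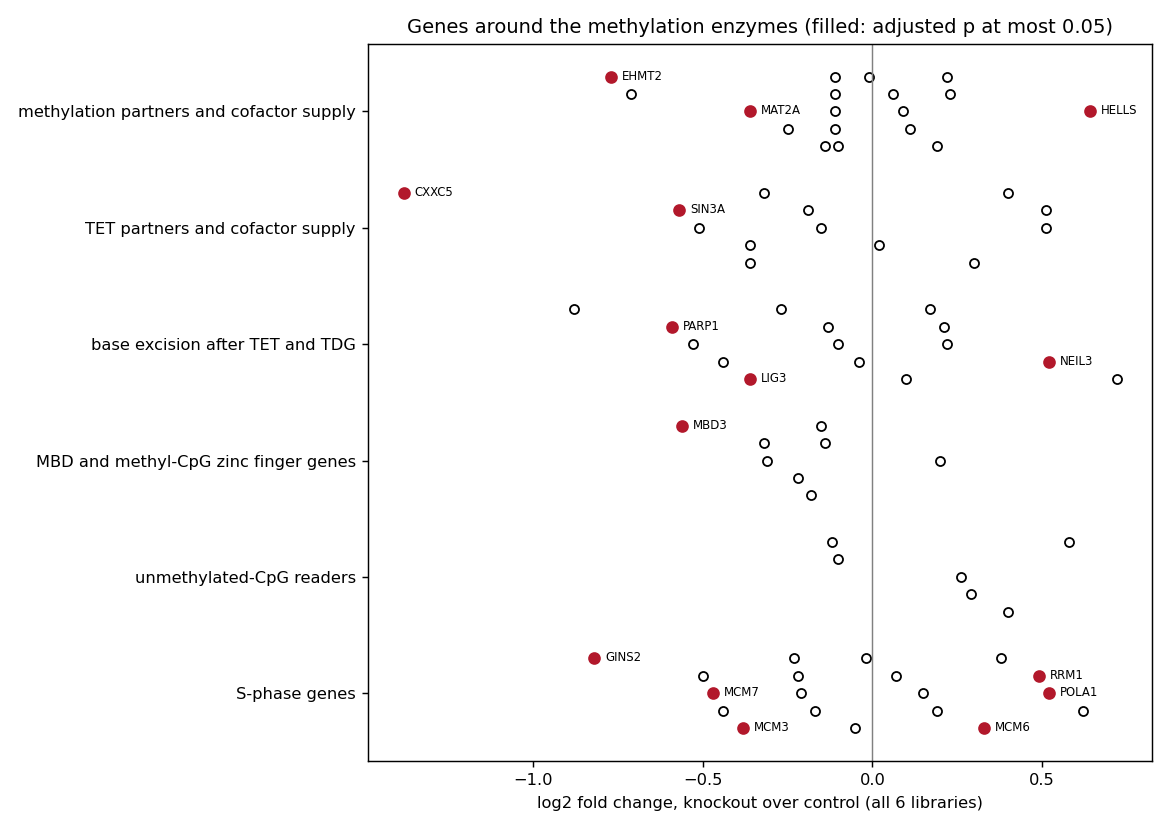
Log2 fold change of knockout over control (x axis, all 6 libraries) for the tested genes of 5 lists around the methylation enzymes and of the S-phase list, one point per gene, leaving out genes not reported here. Filled, named points passed an adjusted p of 0.05. MBD3 lies to the left, and called S-phase genes lie on both sides.

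Germline genes that promoter methylation is known to silence in somatic cells stayed low in both groups. Of 24 genes, 18 had under 20 counts in every library, DAZL and the MAGEA1 and MAGEA4 genes with at most 1. The summed counts of all 24 were 491, 487 and 645 in the controls, against 476 to 518 after knockout. TDRD6 made up the largest part of each sum, with 285, 260 and 264 counts in the controls against 289, 260 and 338 after knockout. The sums therefore say little about the other genes. Of the 8 that could be tested none was called higher and 1 lower, against 7.96% and 8.67% of all genes. Without overlap between groups, 2 of the 8 were higher and 2 lower, against 21.5% and 20.1% of all genes. SYCP3 was higher, with 7, 9 and 4 counts in the controls against 18, 19 and 11 after knockout. It was not called (log2 fold change 1.40, edgeR adjusted p = 0.0667). TEX19 fell from 73, 69 and 80 counts to 30, 33 and 34, a log2 change of -1.04 (SE 0.19, edgeR adjusted p = 0.019, between 0.000397 and 0.117 among the 12 alternatives). Among the fits without 1 library, its call held only without control replicate 3, where 3 of the 8 genes were higher and 2 lower, against 32.4% and 33.2% of all genes.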

How the data were processed

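Poly(A) RNA of 3 control and 3 FAM60A-knockout libraries was analysed. The authors deposited whole-number read counts per Ensembl gene, without normalization. The submitters' processing notes name STAR 2.7.10b, featureCounts 2.0.0 and hg38, whereas the study's methods name Trimmomatic and Salmon on hg38 with strand-specific libraries and the labels' protocol names hg19. The annotation release and the strand setting of the counting were not given in the sources used here.

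Symbols were matched for 60878 of 62754 genes. Counts were TMM-scaled, filtered with filterByExpr (minimum count 10) and tested with edgeR 4.0.16 (glmQLFit and glmQLFTest, two-sided) in R 4.3.3, with Benjamini-Hochberg adjustment. The study itself used limma. Standard errors and 95% intervals came from the same fit. Log2 CPM used a prior count of 2. Totals of over 88361827 counts per library leave counting error small for all 9 genes, and intervals cover the spread between libraries. Exon lengths were taken from GENCODE 44 lifted to GRCh37, and gene positions and promoters from RefSeq on GRCh38.p14.

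Alternatives were DESeq2 1.42.0, quantile-normalized limma-voom (limma 3.58.1), plain library sizes, other filters, each library left out and a replicate block. The members and lists were chosen with earlier results of these data known. All 9 members were named. From each list the called genes, at most the 4 of largest absolute log2 fold change, were named, or else the gene of smallest p, and any further gene was picked with its values in view. For the member of widest range, the 3 nearest profiles were named. Some genes of the lists count in the totals but are not reported by name here. The fit was tested on simulated data. Python 3.11.15, pandas 2.3.3, scipy 1.17.1 and matplotlib 3.10.9 were used for summaries and figures.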

Additional observations from a re-analysis of the deposited data

How the results depend on the processing

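The number of members called, 2 with all libraries, was 4 with DESeq2, 1 without the filter on low counts, 3 with plain library sizes and 0 to 5 when 1 library was left out, with 0 in 5 of these 6 fits and 5 without control replicate 3. The number of pathway genes called, 10, was 16 with DESeq2 and 0 to 47 without 1 library, and that of all genes, 3491, was 5581 with DESeq2 and 167 (without knockout replicate 1) to 14221 (without control replicate 3). FAM60A kept its direction, at -0.92 to -0.78 without 1 library, and lost its call without any one knockout library. The log2 fold change of DNMT3A turned to -0.06 with library size without TMM, to -0.01 without control replicate 1 or knockout replicate 3 and to -0.02 without control replicate 2. Without 1 library DNMT3A ranged from -0.02 to 0.11, DNMT3B from -0.20 to 0.09 and TET2 from -0.03 to 0.33, with DNMT3B and TET2 turning only without control replicate 3. The other 6 members kept their sign in all 12 alternatives. Library size without TMM moved the median of all genes to -0.12 and the calls to 1235 higher and 2668 lower, from 1671 and 1820. Computing the DNMT1 and TET shares without exon lengths, added after the data had been seen, kept the direction of all 4 group differences. Fits without 1 library also had fewer samples, and the cause of these shifts was not tested.

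Replicate numbers did not pair the samples: deviations of same-numbered samples correlated at 0.0101, 0.0306 and -0.0362 over genes, and control replicate 1 correlated best with knockout replicate 3 (0.0771). With the replicate block, 0 members (4 at an unadjusted p under 0.05 in edgeR) and 0 pathway genes (20 at an unadjusted p under 0.05) were called. Of all genes, 407 were called and 6388 had an unadjusted p under 0.05 in this fit. FAM60A was at -0.84 (edgeR adjusted p = 0.0551).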

Other observations

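TET enzymes need 2-oxoglutarate, which IDH2 makes, and are inhibited by 2-hydroxyglutarate, which D2HGDH removes. Both genes were singled out after their values were seen. IDH2 gave 4071, 4049 and 17973 counts in control replicates 1 to 3, against 9332, 10211 and 9379 after knockout. D2HGDH gave 896, 961 and 2395 against 1764, 1841 and 1838. In both genes control replicate 3 was the highest library, the knockout libraries came next and control replicates 1 and 2 were lowest. Neither was called by edgeR with all libraries (log2 fold changes 0.30 and 0.51, adjusted p = 0.75 and 0.389). Without control replicate 3 the values were 1.37 and 1.09, both past the threshold, in a fit that called 65.6% of all genes. Of the 14 listed TET partners and cofactor suppliers, that fit called 5 higher and 8 lower. IDH1, of the same list, went the other way, with 8141, 8157 and 7815 counts in the controls against 6030, 5575 and 5670 after knockout. It was not called with all libraries (log2 fold change -0.32, edgeR adjusted p = 0.0522).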
